A study of Drosophila melanogaster with 9 samples.

Results

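*Ilp8* and *Lgr3* are the genes of a relaxin-like hormone of the fly and of its receptor. They were taken by name, each as the sum of its annotated transcripts, and they are 2 of the 17714 genes that the deposited transcript table could be paired with. The pair was selected on the *Ilp8* level in the metafemale and control libraries, which was already known, so the levels of both genes are given as a description, with no test. The table holds 9 RNA libraries of whole *Drosophila* third-instar larvae, 3 for each of 3 groups. The control females (XX) and control males (XY) were Canton S wild type. The metafemales (XXX) carry 3 X chromosomes with 2 sets of autosomes and came from C(1)DX, ywf/winscy mothers, whose X chromosomes are attached, mated to Canton S fathers. They were picked out among the progeny by sex and by black mouthparts. All stocks were kept at 25 °C, and ribosomal RNA was removed before the libraries were made.

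Several features of the groups limit what a difference between them can show. The metafemales differ from the controls in strain background and parental cross as well as in X chromosome number, and these cannot be told apart. The age of the larvae within the third instar is not given in the sources used here, nor is the number of larvae in a library or whether the libraries of a group came from separate cultures, so the spread between libraries may be technical. In whole larvae, fewer cells of a type and less RNA per cell cannot be told apart. Total counts ran from 130919406 to 184268612 per library. Metafemale 1 stood apart from the other libraries, with 13.45% of its counts on transcripts assembled by the authors' pipeline against 24.55% to 32.59% elsewhere. Some values are therefore also given without it, whereas summed levels, shares and correlations over the libraries are given only with it. The sex labels of the controls fitted a set of 5 spermatocyte genes (*aly*, *can*, *sa*, *mia* and *dj*), whose summed level was 34.5 to 44.7 CPM (counts scaled to a library total of 1000000) in the males, 2.17 to 2.55 CPM in the females and 2.06 to 3.0 CPM in the metafemales.

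Ilp8 is a secreted peptide of the insulin and relaxin family. Imaginal discs, the larval sacs that form the adult appendages, release it when their growth is disturbed or their tissue is damaged. It acts on Lgr3, a leucine-rich repeat G protein-coupled receptor present in a small set of brain neurons, which connect to the neurons that make prothoracicotropic hormone (Ptth). The relay lowers production of the steroid ecdysone in the prothoracic gland, so that pupariation is put off and the growth of the organs stays coordinated.

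*Ilp8* was present in all metafemale libraries and in no control female library. The gene (FBgn0036690) lies on chromosome arm 3L at 17029812 to 17032080 on the minus strand of BDGP6, and its 1 transcript in the table, Ilp8-RB, has 867 bases in 3 exons. The metafemale libraries held 1451, 1114 and 1231 *Ilp8* counts. The control females held 0, 0 and 0 counts, which allows up to 0.0163, 0.020 and 0.0217 CPM when 3 counts are taken as the limit in a library. The control males held 111, 6 and 8 counts. The metafemales were thus high in every library, 1 male library was intermediate and the remaining control libraries were at or near 0. As CPM of the whole table, *Ilp8* reached 10.4, 6.63 and 7.29 in the metafemales, a mean of 8.10 ± 1.99 (SD, n = 3).

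The metafemale mean of *Ilp8* was at least 419-fold higher than in females when each female library was set to its limit of 3 counts. This bound ran from 360 to 457 as any 1 of the 6 libraries was left out, and it was 360 without metafemale 1. In the males the *Ilp8* level was 0.834, 0.0337 and 0.0611 CPM, a mean of 0.310 ± 0.454 (SD, n = 3). The exact Poisson 95% interval of male 1 was 0.686 to 1.0 CPM, that of male 2 was 0.0124 to 0.0734 CPM and that of male 3 was 0.0264 to 0.12 CPM, and these intervals cover counting error only. Male 1 therefore lay above the other males by more than counting error, and the SD of the group exceeded its mean. The metafemale mean was 26.2 times the male mean, 171 times without male 1, and 18.1 to 28.5 times when any other library was left out. The ratio of males to females was a bound of at least 16.0, which fell to at least 2.45 without male 1. The order of the *Ilp8* level was metafemales, males, females, with no overlap between any of the groups. Between males and females 17.6% of the 13700 genes tested were called higher in males, a comparison in which *Ilp8* did not pass the filter on low counts, and the step between males and females rested largely on male 1.

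**Figure D1:**
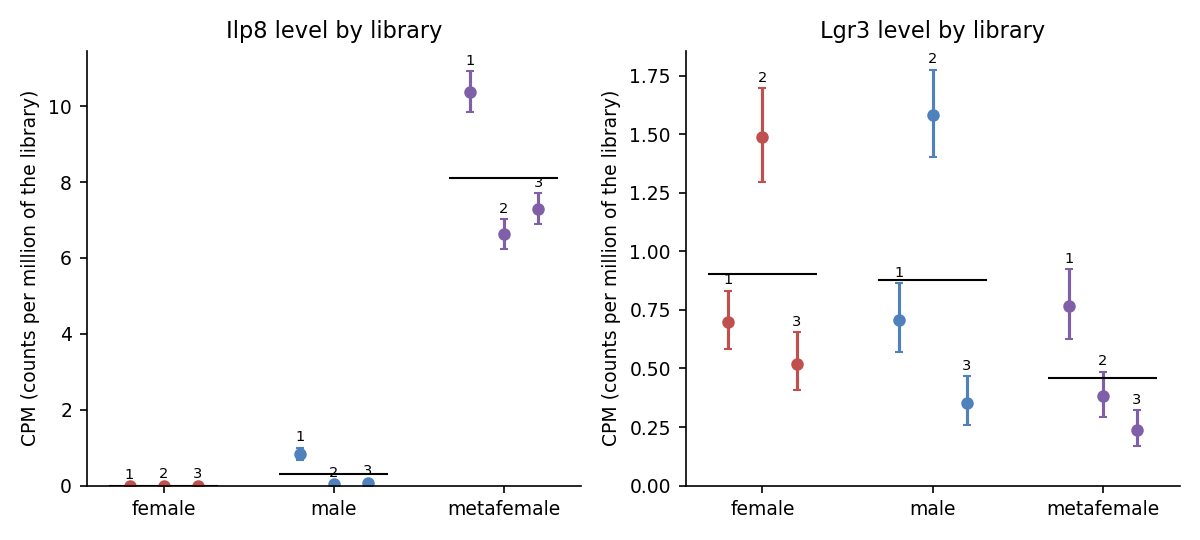
*Ilp8* (left) and *Lgr3* (right) in each of the 9 libraries, in CPM of the whole table. Each point is a library, numbered by replicate, with its exact Poisson 95% interval as a bar, and each horizontal line is the mean of a group of 3. *Ilp8* sits between 6.63 and 10.4 CPM in the metafemales and at 0 in the females, whereas the groups overlap for *Lgr3*.

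Among protein-coding genes, *Ilp8* went from no counts in the females to the middle of the range in the metafemales. By mean CPM it ranked 5950 of 13895 protein-coding genes in the metafemales, with 57.2% of them below it, against 15.3% below it in the males. *Ilp8* belongs to a small class of genes with this on and off pattern. Of 2880 genes at 0 counts in every female library, 3 had at least 100 counts in every metafemale library, and they are named here after their values were seen. They are *Ilp8*, *mthl8* and *LysP*, all on 3L. *mthl8*, a gene of the methuselah-like receptor family, had 1071, 943 and 1155 counts in the metafemales and 0 in every male library. *LysP*, which encodes a lysozyme, had 111, 151 and 160 counts in the metafemales and at most 2 in a male library. Unlike these, *Ilp8* had counts in every male library.

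The genes around *Ilp8* did not share its pattern. The 3 nearest protein-coding genes on each side are *CG7730*, *Fit2*, *a10*, *beg*, *scaf6* and *Papst2*. For genes other than *Ilp8* and *Lgr3*, differences were put to the quasi-likelihood test of edgeR, its p-values adjusted by Benjamini-Hochberg over the whole table, and a gene was called where the log2 fold change exceeded 1 in size with an adjusted p under 0.05. By this rule 14.6% of the 11995 genes tested were called between metafemales and females. None of the 6 neighbours was, with log2 fold changes between -0.48 and 0.48. *CG7730* overlaps *Ilp8* by 3 bases at its 3′ end. It stood at 3.21 to 5.34 CPM in males, 0.814 to 1.02 CPM in females and 0.899 to 0.958 CPM in metafemales. *CG7730* was thus high in males only and at a like level in the groups with the least and the most *Ilp8* (log2 fold change 0.02, edgeR adjusted p = 0.953). At the other end *lncRNA:CR45756* shares 26 bases and the strand with *Ilp8*, and it reached at most 0.00724 CPM in any library. Whether the authors' counting used the strand of the reads is not given in the sources used here.

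*Lgr3* was low in all groups and its groups overlapped. The gene (FBgn0039354) lies on 3R at 25665809 to 25677214 on the plus strand of BDGP6, and its 1 transcript in the table, Lgr3-RA, has 3005 bases in 11 exons. The females held 129, 223 and 72 *Lgr3* counts, the males 94, 281 and 46, and the metafemales 107, 64 and 40. Replicate 2 was the highest library in both control groups, and metafemale 1 lay inside the control range. On the CPM scale the females had 0.70, 1.49 and 0.521 (mean 0.903 ± 0.514, SD, n = 3). The males had 0.706, 1.58 and 0.351 CPM (0.879 ± 0.632) and the metafemales 0.764, 0.381 and 0.237 CPM (0.461 ± 0.273).

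The metafemale mean of *Lgr3* was 0.511 times the female mean and 0.524 times the male mean, while the male mean was 0.974 times the female mean. None of these neighbours in the order differed beyond the spread of the libraries. Single libraries decided the size of the ratios. Without metafemale 1 the ratio to females was 0.342 and the groups no longer overlapped. Without female 2 it was 0.755, and the ratio to males was 0.872 without male 2. The ratio of males to females moved to 0.586 without male 2 and to 1.44 without female 2. *Lgr3* counts of 40 to 281 per library keep the exact Poisson 95% intervals fairly wide, for example 0.169 to 0.323 CPM in metafemale 3, but the intervals of the lowest and the highest library of each group do not meet.

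Reads at the *Lgr3* locus may also come from its antisense neighbours. *lncRNA:CR45225* lies wholly within *Lgr3* on the other strand and was at most 0.155 CPM. *CG4730* overlaps the last 143 bases of *Lgr3* on the other strand and stood at 0.714 to 2.61 CPM. Between metafemales and females 14.6% of all genes tested were called. Of the 3 nearest protein-coding genes on each side of *Lgr3* (*RASSF8*, *Tnks*, *jigr1*, *CG4730*, *CG5039* and *CG4743*), *CG5039* was called in this comparison. It was 4.52 to 4.64 CPM in the metafemales against 1.69 to 2.16 CPM in the females, a log2 fold change of 1.23 (SE 0.16, edgeR adjusted p = 0.00242). The other 5 lay between -0.47 and 0.28 on the log2 scale and were not called.

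*Ilp8* and *Lgr3* differ in transcript length, so their levels can be compared only per kilobase. In CPM per kilobase of transcript the *Ilp8* level was 9.34 ± 2.30 (SD, n = 3) in metafemales and 0.357 ± 0.524 in males. The *Lgr3* level was 0.300 ± 0.171 in females, 0.293 ± 0.210 in males and 0.153 ± 0.0908 in metafemales. As RNA of whole larvae, ligand transcript therefore exceeded receptor transcript by 47.0, 60.3 and 107 times in the metafemale libraries. In the males the ratio was 4.09, 0.0740 and 0.603, so that ligand transcript exceeded receptor transcript in male 1 only.

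The other peptides of the family are *Ilp1* to *Ilp7*. Ilp2, Ilp3 and Ilp5 are insulin-like hormones of the brain's insulin-producing cells, and Ilp6 is an insulin-like growth factor-like peptide of the fat body. Between metafemales and females 9.75% of all genes tested were called higher and 4.83% lower. Of the 4 peptide genes with enough counts to test in this comparison, 0 rose and 1 fell. This was the X-linked *Ilp6*, at 48.8, 67.9 and 73.0 CPM in females and 20.6, 17.2 and 24.8 CPM in metafemales, with a log2 fold change of -1.57 (SE 0.18, edgeR adjusted p = 0.00142). *Ilp6* was also intermediate in the males, at 25.1 to 43.8 CPM, and did not pass the test between metafemales and males (log2 fold change -0.50, edgeR adjusted p = 0.0514). *Ilp2*, *Ilp3* and *Ilp5* had log2 fold changes of -0.18, -0.29 and 0.38 between metafemales and females and overlapped between the groups. *Ilp1*, *Ilp4* and *Ilp7* had at most 10 counts in a library. The median log2 fold change of the 4 tested was -0.24, against -0.03 over all genes tested.

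*Ilp8* thus took a share of the family transcripts in metafemales that it had in neither control. Of the summed CPM per kilobase of *Ilp1* to *Ilp8*, *Ilp8* made up 40.2%, 33.7% and 32.1% in the metafemale libraries. In the males it made up 3.69%, 0.140% and 0.375%. *Ilp6* made up 80.7% to 85.4% in the females, 64.5% to 82.5% in the males and 36.2%, 39.7% and 49.6% in the metafemales. The share of *Ilp8* exceeded that of *Ilp6* in metafemale 1 only. The summed level itself was 31.7 to 44.8 CPM per kilobase in the females, 18.8 to 27.8 in the males and 22.7 to 29.8 in the metafemales. The metafemales lay below the females and overlapped the males in this sum.

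**Figure D2:**
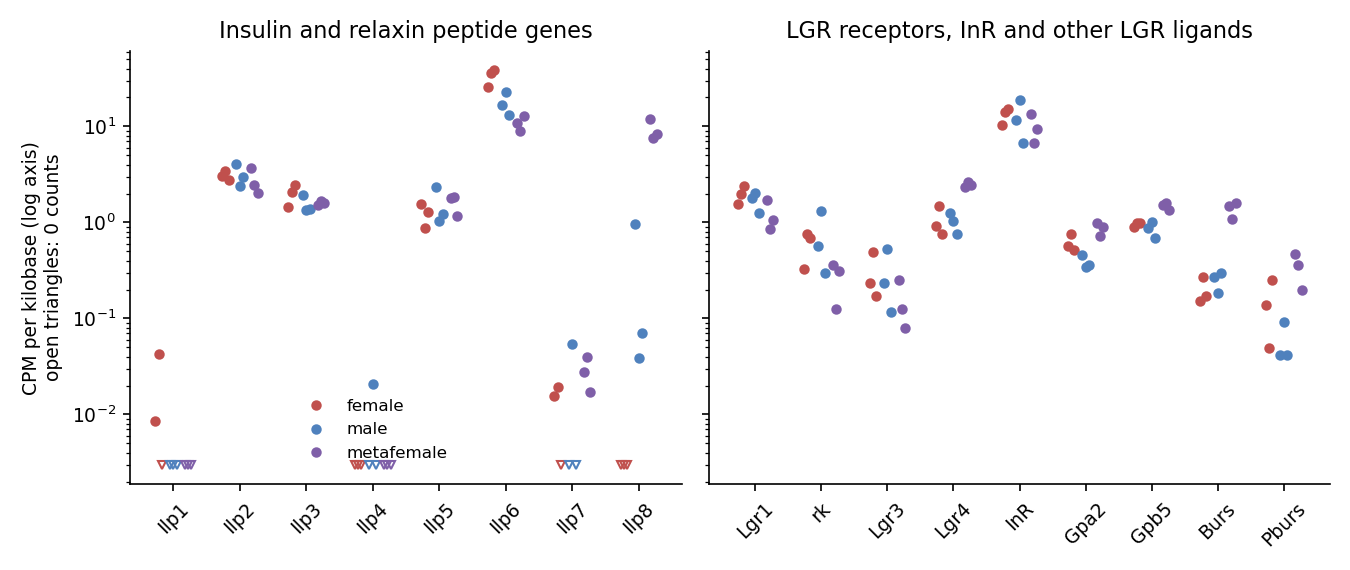
Level of each insulin and relaxin peptide gene (left) and of the LGR receptors, the insulin receptor and other LGR ligands (right), in CPM per kilobase of transcript on a log axis. Each point is a library, coloured by group, and open triangles are libraries with 0 counts. *Ilp8* has a mean of 9.34 in the metafemales and triangles only in the females. *Ilp6* is the highest peptide in every library except metafemale 1, where *Ilp8* is the highest.

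The receptors related to *Lgr3*, with their ligands and the insulin receptor, made a list of 8 genes other than *Lgr3*. Between metafemales and females 2 rose and none fell, where 9.75% of all genes were called higher. *Burs*, a subunit of the tanning hormone bursicon, was 0.0977, 0.173 and 0.108 CPM in the females and 0.943, 0.702 and 1.03 CPM in the metafemales, with a log2 fold change of 2.83 (SE 0.33, edgeR adjusted p = 0.00161). *Lgr4*, an X-linked gene for the other relaxin-type receptor of the fly, was 2.70, 4.41 and 2.24 CPM in the females and 7.03, 7.88 and 7.36 CPM in the metafemales, a log2 fold change of 1.27 (SE 0.27, edgeR adjusted p = 0.0121). Both were above every control library, males included. *Lgr4* thus rose in the same libraries in which *Lgr3* was not separated from the controls.

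The remaining genes of the receptor list were not called between metafemales and females. *rk*, the bursicon receptor, had a log2 fold change of -1.13 (edgeR adjusted p = 0.0683), which was past the threshold without female 1 (-1.37, adjusted p = 0.0452) and with 2 other settings. *Lgr1* had -0.71, *InR* -0.42, *Gpb5* 0.66, *Gpa2* 0.50 and *Pburs*, the partner of *Burs*, 1.23. Between metafemales and males, where 30.8% of 13814 genes were called and 9.21% were called higher, 4 of the 8 rose and none fell. These were *Burs* (2.59), *Pburs* (2.67), *Lgr4* (1.48) and *Gpa2* (1.3), the last of which was lost without metafemale 3 (1.28, edgeR adjusted p = 0.0566). The median of the list was 0.58 against females and 1.14 against males.

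*Ilp8* is known to be switched on by stress signals in the discs, and 26 genes of those signals were listed. They comprise the Jun kinase cascade from *egr*, its ligand, and *grnd*, its receptor, through *hep* and *bsk*, the kinases, to *puc*, a target that feeds back on it. They also hold the Hippo pathway with its effector *yki*, the JAK/STAT pathway with its ligands *upd1* to *upd3*, and the stress factor *Xrp1*. Between metafemales and females 4 of the 26 rose and none fell. The background called in either direction is the 14.6% given above, and 9.75% were called higher. The median log2 fold change of the list was 0.26 against -0.03 over all genes tested. Of the 26, 8 are X-linked, and X-linked genes as a whole had a median of 0.43 with 15.5% called higher.

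All 3 JAK/STAT ligands rose with *Ilp8*. *upd3*, an X-linked cytokine released by damaged tissue, was 0.667, 0.440 and 0.687 CPM in females and 7.19, 3.32 and 5.53 CPM in metafemales, a log2 fold change of 3.14 (SE 0.30, edgeR adjusted p = 0.000936). *upd2* was 0.0733 to 0.311 CPM in females and 1.28, 0.601 and 2.21 CPM in metafemales (log2 fold change 3.10, SE 0.67, edgeR adjusted p = 0.0124). *upd1* was 0.261 to 0.514 CPM in females and 1.76, 1.17 and 1.21 CPM in metafemales (1.81, SE 0.27, edgeR adjusted p = 0.00354). All 3 ligand genes are on the X. *Ets21C*, on 2L, is a transcription factor that acts below the Jun kinase, and it was 1.3, 1.15 and 1.45 CPM in females and 6.45, 4.54 and 8.28 CPM in metafemales, a log2 fold change of 2.32 (SE 0.23, edgeR adjusted p = 0.00106). These 4 were picked by their calls, and the metafemale and control libraries did not overlap for any of them. The share of all genes without such overlap is not given here. Each of the 4 was called when any 1 library of the comparison with females was left out.

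The other 22 regulators were not called. *egr* had a log2 fold change of -0.16 (edgeR adjusted p = 0.347). *Stat92E*, the JAK/STAT transcription factor, had a log2 fold change of -0.14, *bsk* of 0.03 and *yki* of -0.16, with edgeR adjusted p of 0.384, 0.805 and 0.26. *puc* (0.58), *kay* (0.55), *hep* (0.50) and *Xrp1* (0.46) were higher in metafemales with an adjusted p under 0.05 and a fold change below the threshold. *grnd* (-0.66), *hpo* (-0.63) and *ex* (-0.61) were lower in the same way. With the adjusted p alone, 11 of the 26 were higher and 4 lower. Between metafemales and males 6 of the 26 rose, 0 fell, and 9.21% of all genes were called higher. They were *upd1*, *upd2*, *upd3* and *Ets21C* together with *hep* (1.10) and *dome* (1.03), the JAK/STAT receptor, and *upd1* was lost without male 1 (1.47, edgeR adjusted p = 0.0567) and *dome* without male 3 (0.92).

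**Figure D3:**
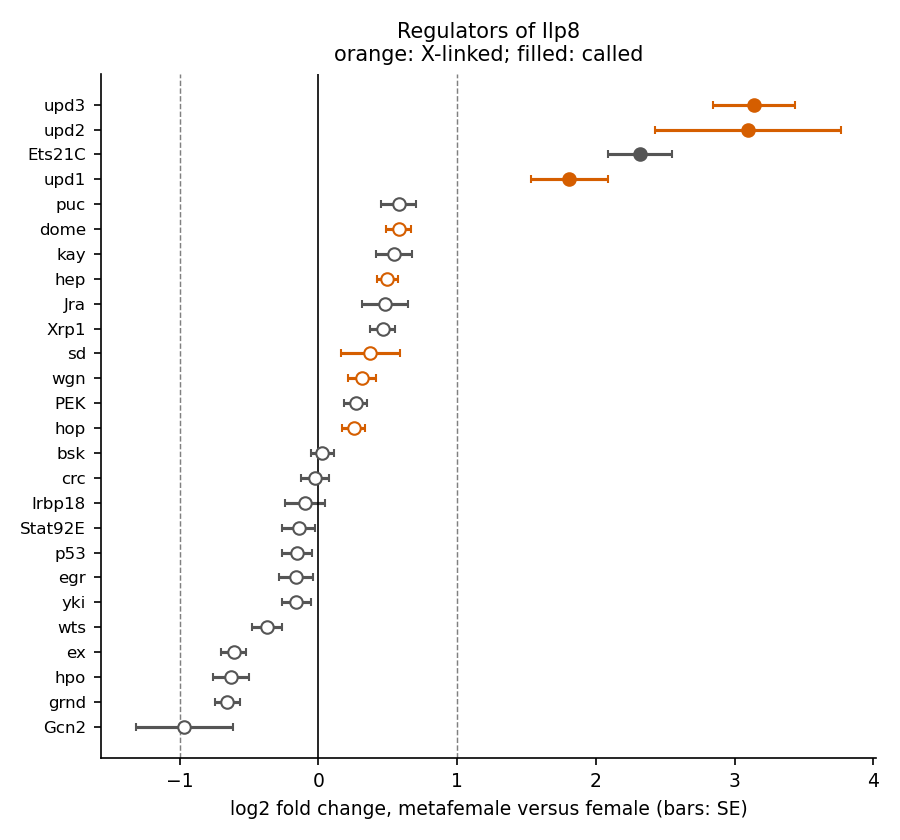
Log2 fold change of the 26 listed regulators of *Ilp8* between metafemales and females, with bars of 1 SE from edgeR. Filled points are called genes, orange points are X-linked, and dashed lines mark the fold threshold. *upd3*, *upd2*, *Ets21C* and *upd1* lie between 1.81 and 3.14, past the threshold of 1, and the other 22 lie within it.

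A list of 12 genes of disc damage and regeneration shares *upd3*, *Ets21C* and *puc* with the previous one. Of the 12, 3 rose between metafemales and females and none fell, where 9.75% of all genes were called higher, and the median was 0.38 against -0.03 over all genes tested. The third was *rpr*, an activator of cell death, at 0.532 to 1.13 CPM in females and 3.05, 1.96 and 1.59 CPM in metafemales (log2 fold change 1.33, SE 0.31, edgeR adjusted p = 0.0159). *Mmp1*, a matrix protease and Jun kinase target, had a log2 fold change of 0.10 (edgeR adjusted p = 0.714). The disc tissue itself, from which *Ilp8* is known to come, was represented by 12 marker genes, all of them above 0 in every group. All 12 had a negative log2 fold change between metafemales and females, with a median of -0.79. *en* (-1.82), *Dll* (-1.37) and *vg* (-1.16) were called, where 4.83% of all genes were called lower. The *vg* call was lost without metafemale 2 (-1.0, edgeR adjusted p = 0.0152). The summed level of the disc markers was 302 to 394 CPM in females, 237 to 489 CPM in males and 161 to 227 CPM in metafemales. The metafemales, the group with the most *Ilp8*, thus had the least disc marker RNA, whereas within the group metafemale 1 was highest and metafemale 2 lowest in both. The part of tissue proportions in its level was not tested.

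The circuit below Lgr3 and the synthesis of ecdysone were listed as 15 genes, 14 of which could be tested between metafemales and females. Of these 1 rose and 1 fell, a share near the 14.6% called over all genes, with a median of -0.41 against -0.03. *Cyp18a1*, the X-linked enzyme that inactivates ecdysone, rose from 2.37, 6.53 and 4.72 CPM in females to 17.9, 12.6 and 9.71 CPM in metafemales (log2 fold change 1.58, SE 0.35, edgeR adjusted p = 0.0134). *sro*, an enzyme of the early steps of synthesis, fell from 18.1, 18.3 and 15.1 CPM to 5.85, 7.96 and 10.4 CPM (-1.06, SE 0.27, edgeR adjusted p = 0.0211). The *sro* call was lost without female 1 (-0.94), female 2 (-1.01, edgeR adjusted p = 0.0634), metafemale 1 (-0.81) or metafemale 2 (-1.10, edgeR adjusted p = 0.0597). *nvd* (-0.92), *sad* (-0.69) and *shd* (-0.47), further enzymes of the route, were lower with an adjusted p under 0.05 and below the fold threshold.

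*Ptth*, the hormone gene of the neurons that *Lgr3* neurons address, was 0.174, 0.273 and 0.637 CPM in females, 0.886, 1.06 and 0.672 CPM in males, and 0.107, 0.191 and 0.225 CPM in metafemales. The metafemales overlapped the females but not the males. The log2 fold change was -0.96 against females (edgeR adjusted p = 0.217) and -2.11 against males (SE 0.38, edgeR adjusted p = 0.00479). *phtm* (0.29) and *dib* (-0.71), hydroxylases of the prothoracic gland, and *Nos* (0.32), the nitric oxide synthase, were not called against females. Between metafemales and males, where 30.8% of all genes were called, *Cyp18a1* (2.10) rose and *sro* (-1.04) and *Ptth* fell. In that comparison *sro* was lost without male 3 (-0.88), metafemale 1 (-0.77) or metafemale 2 (-1.05, edgeR adjusted p = 0.0607). None of the 5 prothoracic gland markers was called in either comparison, and their summed level was 255 to 299 CPM in females, 195 to 293 CPM in males and 150 to 229 CPM in metafemales.

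Of 13 listed genes that respond to ecdysone, 0 rose and 4 fell against females, where 4.83% of all genes were called lower, and the median was -0.60. *Hr4*, a nuclear receptor gene on the X, stood at 3.50, 67.0 and 5.68 CPM in females, 3.36, 48.1 and 3.43 CPM in males, and 0.322, 0.649 and 0.740 CPM in metafemales (log2 fold change -5.41, SE 1.29, edgeR adjusted p = 0.0175). *Eip78C* (-3.49), *Eip74EF* (-1.67) and *br* (-1.49), ecdysone-induced transcription factors, fell as well. *br* kept its call when any 1 library was left out. Without any 1 of the metafemale libraries the other 3 calls were lost, *Hr4* with -5.08, -5.57 and -5.65 (edgeR adjusted p = 0.0611, 0.0628 and 0.0537). Without female 2, *Hr4* was -2.93 (edgeR adjusted p = 0.00967) and *Eip74EF* was below the fold threshold at -0.94. *EcR*, the ecdysone receptor, had -0.60 (edgeR adjusted p = 0.123). Against males, where 21.6% of all genes were called lower and 9.21% higher, *Hr4* (-4.62), *Hr3* (-2.67), *Eip78C* (-2.34) and *br* (-1.14) fell. *ftz-f1* (1.3), which follows an ecdysone pulse, rose, and leaving out 1 library gave 1 to 4 lower. There *Hr4* was lost without any 1 metafemale library, *Eip78C* without metafemale 1 or 2, and *br* without male 1, male 2 or any 1 metafemale library.

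*Lgr3* and these ecdysone-response genes were highest in the same control libraries. Female 2 and male 2, the libraries with the most *Lgr3*, also had the most *Hr4*, the most *Eip78C* (218 and 98.5 CPM, against 20.4 to 28.5 in the other controls) and the most *Eip74EF* (373 and 360 CPM, against 91.5 to 157). Over the 9 libraries, Pearson's r of log2(CPM + 0.1) with *Lgr3* was 0.83 for *br*, 0.81 for *Eip74EF*, 0.77 for *Eip78C* and 0.76 for *Hr4*. They ranked 292, 436, 883 and 1033 among 10697 genes, so values of this size were not particular to ecdysone-response genes. For *Ilp8* the values were of the other sign, -0.81 for *Hr4* and -0.76 for *Eip78C*. Metafemale 1 and metafemale 2 had *Lgr3* inside the control range, at 0.764 and 0.381 CPM, and *Hr4* below every control library. These are descriptions over libraries that share groups and depth. Over the whole ecdysone-response list r with *Lgr3* ran from -0.04 for *ftz-f1* to 0.85 for *Eip63E*, and over the 10 neuron markers from -0.16 for *ChAT* to 0.59 for *VAChT*, ranges that overlap. Of 10 neuron markers 3 rose against females, where 9.75% of all genes were called higher. They were *Gad1*, *ChAT* and the X-linked *para*, and none of them was called without metafemale 1. The *para* call was also lost without female 1, female 2 or female 3, and the *ChAT* call without female 1 or female 2. The summed level of the 10 markers was 327 to 423 CPM in females, 312 to 420 CPM in males and 299 to 499 CPM in metafemales.

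**Figure D4:**
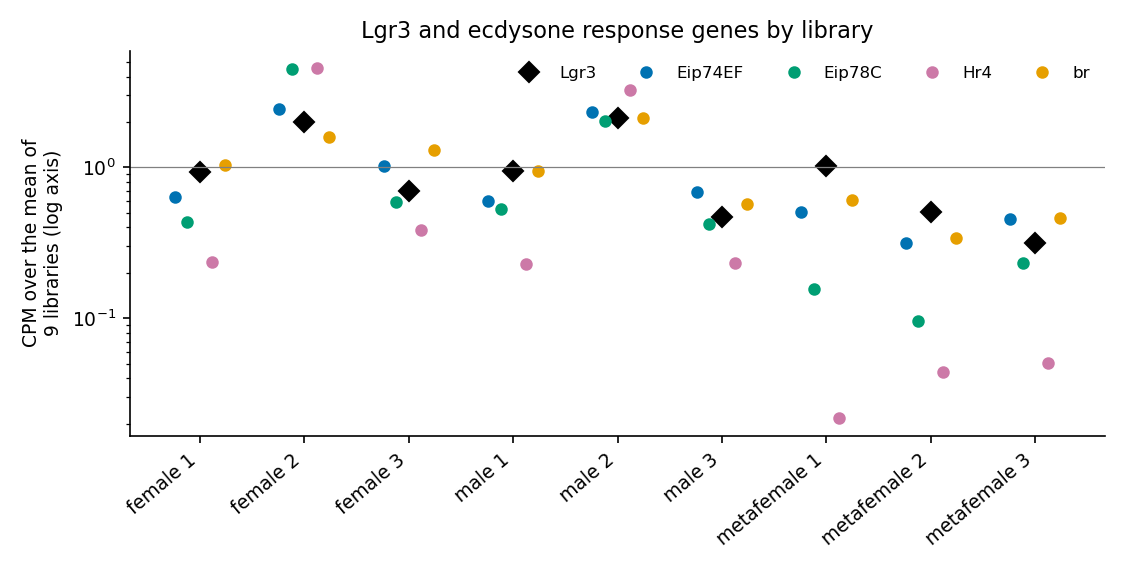
Level of *Lgr3* and of the ecdysone-response genes *br*, *Eip74EF*, *Eip78C* and *Hr4* in each of the 9 libraries, as CPM divided by the gene's mean over the 9 libraries, on a log axis with a line at 1. Each point is a gene in a library. Female 2 and male 2 hold the highest *Lgr3* (1.49 and 1.58 CPM) and the highest *Hr4* (67.0 and 48.1 CPM) of their groups.

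Genes that mark the progress of the third instar also differed between the groups that *Ilp8* separates. Against females 9.75% of all genes tested were called higher and 4.83% lower. The salivary glue proteins of the *Sgs* genes are made late in the instar, and all 7 fell against females. *Sgs3* was 168 to 192 CPM in females, 130 to 242 CPM in males and 24.4 to 38.8 CPM in metafemales (log2 fold change -2.43, SE 0.24, edgeR adjusted p = 0.00102). *ng1*, *ng2* and *ng3*, X-linked salivary gland genes active before the glue genes, rose by 4.55, 3.94 and 2.2 on the log2 scale. *Sgs1* lost its call without female 2 or any 1 metafemale library, and leaving out 1 library gave 5 to 6 *Sgs* genes called lower. Of 6 larval serum and fat body protein genes, *Fbp1* fell against females (-2.51, edgeR adjusted p = 0.0112). Metafemales and males overlapped for *Fbp1* (-0.77, edgeR adjusted p = 0.312). It was also called lower in males than in females (-1.71, edgeR adjusted p = 0.00848), a call lost without male 1. All 4 muscle markers, of which *up* is X-linked, rose against females, 1 to 4 of them when a library was left out. Their summed level was 9383 to 16920 CPM in metafemales against 3500 to 6666 CPM in females and 2872 to 8739 CPM in males. Of the 4 glia markers the X-linked *moody* rose (1.18), but 2 of the 4 log2 fold changes were negative and the median was -0.02. The summed glia level was 274.6 to 373.9 CPM in metafemales, 399.5 to 568.0 CPM in females and 351.5 to 693.3 CPM in males. Of the 5 germline markers *bam* fell (-1.94). The part of larval stage and of tissue proportions in the *Ilp8* and *Lgr3* levels was not tested.

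The genes whose pattern over the 9 libraries was most like that of *Ilp8*, among 10696 with a mean of at least 1 CPM, were *CG15615* (r = 0.987), *frma* (0.980), *CG3021* (0.978), *Tg* (0.978) and *CG18649* (0.977). *CG15615* shared the low male 2 and male 3 and the raised male 1, with 0.586, 0.152 and 0.214 CPM in the males, 0.10 to 0.239 CPM in the females and 5.59, 4.25 and 3.71 CPM in the metafemales. *frma* had 0.157 to 0.340 CPM in the females, 0.365 to 0.691 in the males and 3.29 to 5.33 in the metafemales. *Tg*, which encodes transglutaminase, changed less, from 14.1 to 16.0 CPM in the females to 27.8 to 29.3 CPM in the metafemales. Like *Ilp8*, all 5 were highest among the controls in male 1. Of the listed regulators with a mean of at least 1 CPM, which leaves out *upd1* and *upd2*, *upd3* was the most alike, with r = 0.966 and rank 35. *Ets21C* followed with r = 0.925 and rank 334.

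For *Lgr3* the most alike of 10697 genes were *sosie* (r = 0.943), *Git* (0.930), *tfc* (0.930), *CG5612* (0.929) and *mod* (0.928). *sosie* was 1.95 and 2.18 CPM in female 2 and male 2, 0.940 to 1.36 CPM in the other controls and 0.782 to 1.41 CPM in the metafemales. The glia marker *Gs2*, which encodes a glutamine synthetase, had rank 6 with r = 0.927. All 5 are present at higher CPM than *Lgr3* and vary within a narrow range, *Git* for example between 12.6 and 22.2 CPM. The lists are sensitive to the measure. With Spearman's rho 1 of the 10 genes stayed among the 5 most alike, and with TMM-scaled values 4 did. *Ilp8* itself had r = -0.48 with *Lgr3*.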

How the data were processed

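Expected counts per transcript of 9 libraries were deposited by the authors as 1 table, made from paired reads of 150 bases with Hisat2 2.0.5, Cuffmerge 2.2.1 and StringTie 1.3.3 on the Ensembl release 102 annotation. The values are whole numbers and not normalized. Of 34919 FlyBase transcripts, 34750 could be matched to 17714 genes in the annotation of Ensembl release 115 (BDGP6) and were summed per gene, and 8017 assembled transcripts stayed in the library totals only. Listed genes under an older symbol (*phm*, *NOS*, *nos*, *Eip71CD*) were matched through RefSeq synonyms. Every per-sample column was used, and groups follow the sample titles. CPM scales the whole column to 1000000, and per-kilobase values divide it by the longest annotated transcript.

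Each pair of groups was compared over its 6 libraries with edgeR 4.0.16 in R 4.3.3 (TMM, filterByExpr, quasi-likelihood test, Benjamini-Hochberg over all genes tested), after a test on simulated data. Its log2 fold changes are on the TMM scale and can differ slightly from ratios of the CPM printed. *Ilp8* passed the filter in the comparisons that include metafemales and not between males and females, and *Lgr3* passed it in all. Neither is tested. Intervals are exact Poisson and, like the limit of 3 counts per library, cover counting error only. The median log2 fold change over all genes was -0.03 for metafemales against females, -0.13 against males and 0.01 for males against females.

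Both genes and all lists were chosen with earlier results of these data known. Named genes are both family lists in full, at most 6 called genes per other list plus a set of listed regulators, the 5 genes most alike (Pearson's r over 9 libraries, mean of at least 1 CPM) and 3 neighbours on each side. Other genes are named where a sentence counts or describes them, and were chosen after their values were seen. Alternatives were DESeq2 1.42.0, other library sizes, other filters, the adjusted p alone, a replicate block, all 9 libraries in 1 fit, and each library left out. The settings added for the 3 list counts were chosen after seeing the data.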

Additional observations from a re-analysis of the deposited data

How the results depend on the processing

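*Ilp8* stayed at 0 in females under every scaling. Its metafemale mean was 10.3 CPM when scaled by the counts paired with genes and 11.2 CPM with TMM. Leaving out 1 library gave 6.96 to 8.83 CPM, and the male mean without male 1 was 0.0474 CPM. *Lgr3* means moved by less than 1 SD under every setting. By the adjusted p alone, 4636 genes were called between metafemales and females, 15 of the regulators, 5 of the circuit list and 7 of the ecdysone-response list. When each library had to hold 10 or more counts, 2058 genes were called between metafemales and males and 533 between males and females, since that filter removes genes near 0 in 1 group, and the share of higher calls between metafemales and males was then 49.8% against 29.9%. Scaled by counts paired with genes, without TMM, 56.0% of the calls between metafemales and females were higher against 66.9%, and the median of all genes was -0.17. Between metafemales and males that median was -0.41.

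Leaving out 1 library gave 1 to 2 called genes in the circuit list and 1 to 5 in the ecdysone-response list. Likeness kept 1 of 10 genes with Spearman's rho and 4 with TMM. The replicate block left 2 ecdysone-response genes called, and 1641, 3596 and 2105 genes called between metafemales and females, metafemales and males, and males and females. Whether the replicate numbers pair the samples is not given in the sources used here. The deviations of same-numbered metafemale and female libraries correlated at 0.11, -0.08 and 0.17. Those of metafemales and males correlated at -0.01, -0.43 and -0.22, and those of males and females at 0.32, 0.24 and -0.15. With 3 libraries per group these values cannot decide whether the samples are paired. Among named genes no direction of a called gene was reversed, and of the alternative values 2806 kept their side of the threshold, 110 lost it and 23 gained it. Depth limits *Lgr3*, at 40 to 281 counts, and *Ilp8* in males 2 and 3.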
